A study of Mus musculus with 2 samples.

Results

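The insulin-like growth factor (IGF) axis genes described here are Igf1, its receptor gene Igf1r and the binding protein genes Igfbp1, Igfbp2, Igfbp3, Igfbp4, Igfbp5, Igfbp6 and Igfbp7. They were chosen by name, and are 9 of 21938 protein-coding genes in the annotation. Each locus was the gene body with 20 kb on each side on the mouse build mm10. The assay was DNase-seq, which marks DNA that the nuclease DNase I can cut in nuclei. The tissue was urinary bladder at an age of 14 days, from males of B6CASTF1/J. These animals are hybrids of C57BL/6J and CAST/EiJ, and the deposited values were not split by parental allele. The tissue formed 1 group of 2 libraries, numbered in the labels as biological replicates: replicate 1 is labelled a male and replicate 2 a pool of 3 males. No conditions were compared, so no test was made, and every mean is given with the SD of the 2 replicates.

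IGF1 is a secreted hormone that drives much of postnatal growth under the control of growth hormone. It acts through the receptor tyrosine kinase encoded by Igf1r, which feeds the phosphoinositide 3-kinase and mitogen-activated kinase cascades. The binding proteins hold IGFs in blood and in extracellular matrix, and proteases release the ligand by cutting them. In bladder, smooth muscle and stromal cells are known sources of IGFs and of several binding proteins.

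Replicate 1 held 139821 peaks with a median signal of 0.687, and replicate 2 held 82225 peaks with a median of 0.887. The signal is the authors' own density per peak, and how it was normalized is not given in the sources used. It moved in whole steps in each library, and a peak of median strength was 132 steps high in replicate 1 and 111 high in replicate 2. Total read depth is unknown. Peaks of the replicates that overlapped were joined into 144484 regions, of which 50.6% held peaks of both and are called shared. A promoter was called open where both libraries had a peak reaching within 1 kb of any annotated transcription start site (TSS) of the gene. By this rule 66.3% of all protein-coding genes had open promoters. So did 6 of 8 urothelial, 7 of 7 smooth muscle and 6 of 6 stromal marker genes. The exceptions among these markers were Krt20 and Trp63, with a peak in replicate 1 alone. None of 6 hepatocyte markers had a promoter peak in either library, 2 of 4 endothelial markers were open, and none of 4 immune markers was open in both. In tissue, fewer cells with an open site and less cutting per cell cannot be told apart.

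Promoters were open at 8 of the 9 IGF axis genes, against 66.3% of all protein-coding genes. The strongest promoter signals lay at Igf1r, Igfbp5 and Igfbp7, and the weakest at the ligand gene Igf1. Igfbp1 alone among the 9 had no promoter peak in either library, a state found at 29.0% of protein-coding genes. The median signal of the 8 open promoters was 2.13, and that of all open promoters was 4.60, with quartiles of 2.14 and 7.78. Igf1r and Igfbp5 lay above the median of all open promoters and the other 6 below it. In the order Igf1r, Igfbp5, Igfbp7, Igfbp4, Igfbp6, Igfbp2, Igfbp3, Igf1, neighbours were apart in both libraries except Igfbp6 and Igfbp2, and Igfbp2 and Igfbp3, whose ranges overlapped.

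**Figure D1:**
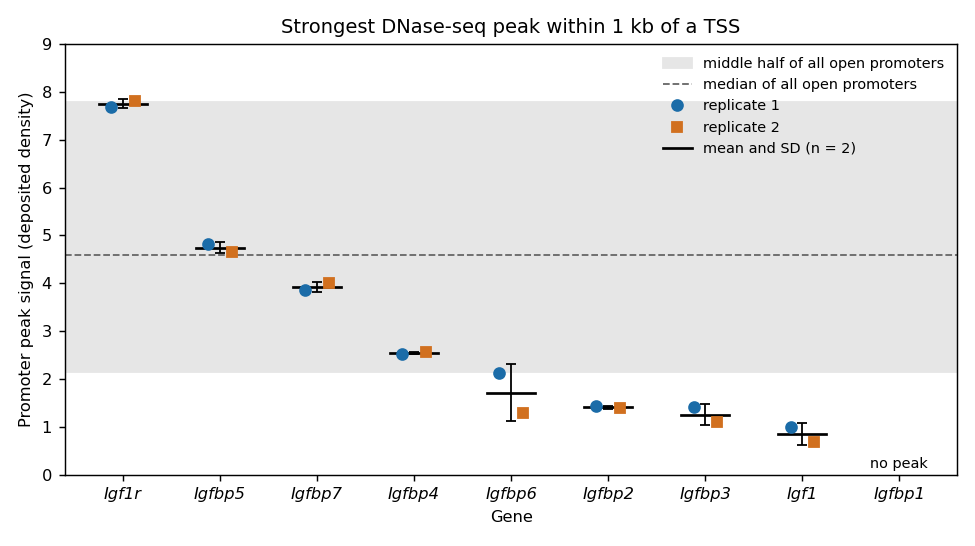
Signal of the strongest promoter peak in replicate 1 (circles) and replicate 2 (squares), in the deposited density units, with the mean and SD (black, n = 2) and, in grey, the quartile range and median of all open promoters. Igf1r reached 7.75 and Igf1 0.842, while Igfbp1 had no peak.

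Igf1 (chr10:87858265-87937042, plus strand) encodes the ligand. Its strongest promoter peak had a signal of 1.00 in replicate 1 (Poisson 95% interval 0.868 to 1.16, counting each step as 1 cut) and 0.680 in replicate 2 (0.543 to 0.840). These were different peaks, centred at +0.816 kb and +1.98 kb of the 5′-most TSS, in a cluster of 8 annotated starts. The mean was 0.842 ± 0.230 (SD, n = 2), at percentile 8.42 of open promoters. At the 5′-most TSS alone Igf1 was not open, since the nearest peak of replicate 2 lay 1812 bp away. The shared promoter regions at +1.98 kb (0.547 in replicate 1 and 0.680 in replicate 2) and +2.73 kb (0.390 and 0.472) were both slightly higher in replicate 2 as deposited. The strongest shared region of the locus lay outside the gene at −3.64 kb, with 1.42 in replicate 1 and 1.18 in replicate 2. Its sequence is shown because it exceeded the gene's own promoter in both libraries, with 3 footprint stretches in capitals. A footprint is a short stretch that the authors called as protected within cut DNA, and capitals here and below mark bases in a footprint of both libraries. The sequence is chr10:87854541-87854700 of mm10 on the plus strand, the strand of the gene, and like the others printed here was read from the RefSeq assembly GRCm38.p6.

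Igf1 upstream region: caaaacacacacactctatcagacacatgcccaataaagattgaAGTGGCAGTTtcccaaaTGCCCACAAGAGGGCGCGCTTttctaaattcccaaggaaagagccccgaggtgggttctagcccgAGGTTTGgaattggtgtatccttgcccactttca

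The Igf1 locus of 118778 bp held 11 peaks in replicate 1 and 7 in replicate 2, joined into 12 regions of which 6 were shared. Its accessible bases, those in stretches at a false discovery rate (FDR) of 0.05 or lower in the authors' track, made up 2.03% of the locus in replicate 1 and 1.13% in replicate 2. Medians over all protein-coding genes were 2.89% and 2.03%, so Igf1 lay below the median in both libraries and was alone among the 9 in this. In intron 3, at +69.2 kb, a shared region had 0.755 in replicate 1 and 0.432 in replicate 2.

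Igf1r (chr7:67952827-68233668, plus strand), the receptor gene, had the strongest promoter of the 9 in both libraries, and in an intron the region of highest mean signal at any of their loci. The promoter peak had a signal of 7.68 in replicate 1 and 7.82 in replicate 2, a mean of 7.75 ± 0.0945 (SD, n = 2) at percentile 74.7. It was centred at about −1.05 kb of the annotated 5′ end and only its edge reached within 1 kb. With a window of 500 bp the promoter signal fell to 3.23, that of a second region at −0.486 kb (3.44 in replicate 1 and 3.02 in replicate 2), which is below the promoters of Igfbp5 and Igfbp7. These distances are from the annotated 5′ end at 67952827. The RefSeq promoter window of the gene, chr7:67952007-67952306, lay upstream of that end, so the RefSeq start was nearer the strongest peak. The RefSeq start fell inside the second region, chr7:67952221-67952460. The strongest peak ended at 67951900, before this window but within 500 bp of the RefSeq start. The fall with a window of 500 bp therefore holds for the annotated 5′ end and not for the RefSeq start. That window had 76% GC and a CpG observed to expected ratio of 1.11, at percentile 98.2 of RefSeq promoter windows.

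That region lay in intron 2 at +176 kb, far from both ends of the gene, with 13.2 in replicate 1 and 8.32 in replicate 2. Its mean of 10.8 ± 3.47 (SD, n = 2) placed it at percentile 97.9 of shared regions by mean rank. A neighbour at +177 kb had 5.56 in replicate 1 and 4.86 in replicate 2. Both stood above the other intron regions of the gene, of which the next, at +9.24 kb and +69.1 kb, had signals of 3.77 and 3.76 in replicate 1 and 2.55 and 2.62 in replicate 2. The sequence of the +176 kb region is shown as the one of highest mean at the 9 loci. In replicate 2 alone the Spryd3 promoter in the Igfbp6 locus was higher, at 11.0. The +176 kb region of Igf1r held 5 footprint stretches covering 94 of its 240 bases. Of these stretches, 1 contains a GC box (CCGCCC on this strand) and another an NFI motif (TTGGCT). The promoter region at −1.05 kb is set beside it: 95 of its 240 bases were in 5 footprint stretches, 1 of which contains the E-box CACGTG. They are chr7:68129101-68129340 and chr7:67951661-67951900 of mm10, plus strand, the strand of the gene.

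Igf1r intron 2 region: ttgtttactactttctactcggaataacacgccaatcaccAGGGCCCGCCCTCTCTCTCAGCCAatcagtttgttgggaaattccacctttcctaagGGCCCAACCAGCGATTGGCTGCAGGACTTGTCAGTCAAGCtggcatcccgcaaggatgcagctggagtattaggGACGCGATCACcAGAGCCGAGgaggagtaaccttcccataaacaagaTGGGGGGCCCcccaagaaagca

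Igf1r promoter region: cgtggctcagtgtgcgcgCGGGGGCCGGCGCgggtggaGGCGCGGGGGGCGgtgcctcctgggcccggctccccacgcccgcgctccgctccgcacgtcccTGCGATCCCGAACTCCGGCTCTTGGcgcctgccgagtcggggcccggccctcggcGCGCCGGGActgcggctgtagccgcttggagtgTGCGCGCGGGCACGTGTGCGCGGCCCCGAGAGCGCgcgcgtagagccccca

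The strings differ in base composition, at 53.8% GC for the intron region and 80% for the promoter region. Over 320842 bp the Igf1r locus held 41 peaks in replicate 1 and 24 in replicate 2. Of its 43 regions, 22 were shared, 19 were peaks of replicate 1 alone with signals of 0.370 to 0.869, and 2 were peaks of replicate 2 alone. Of the 22 shared regions, 18 were intronic and outside promoters, in a locus of which 280842 bp is gene body. The density of 6.86 shared regions per 100 kb was at percentile 62.3 of protein-coding genes, whose median was 4.96.

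**Figure D2:**
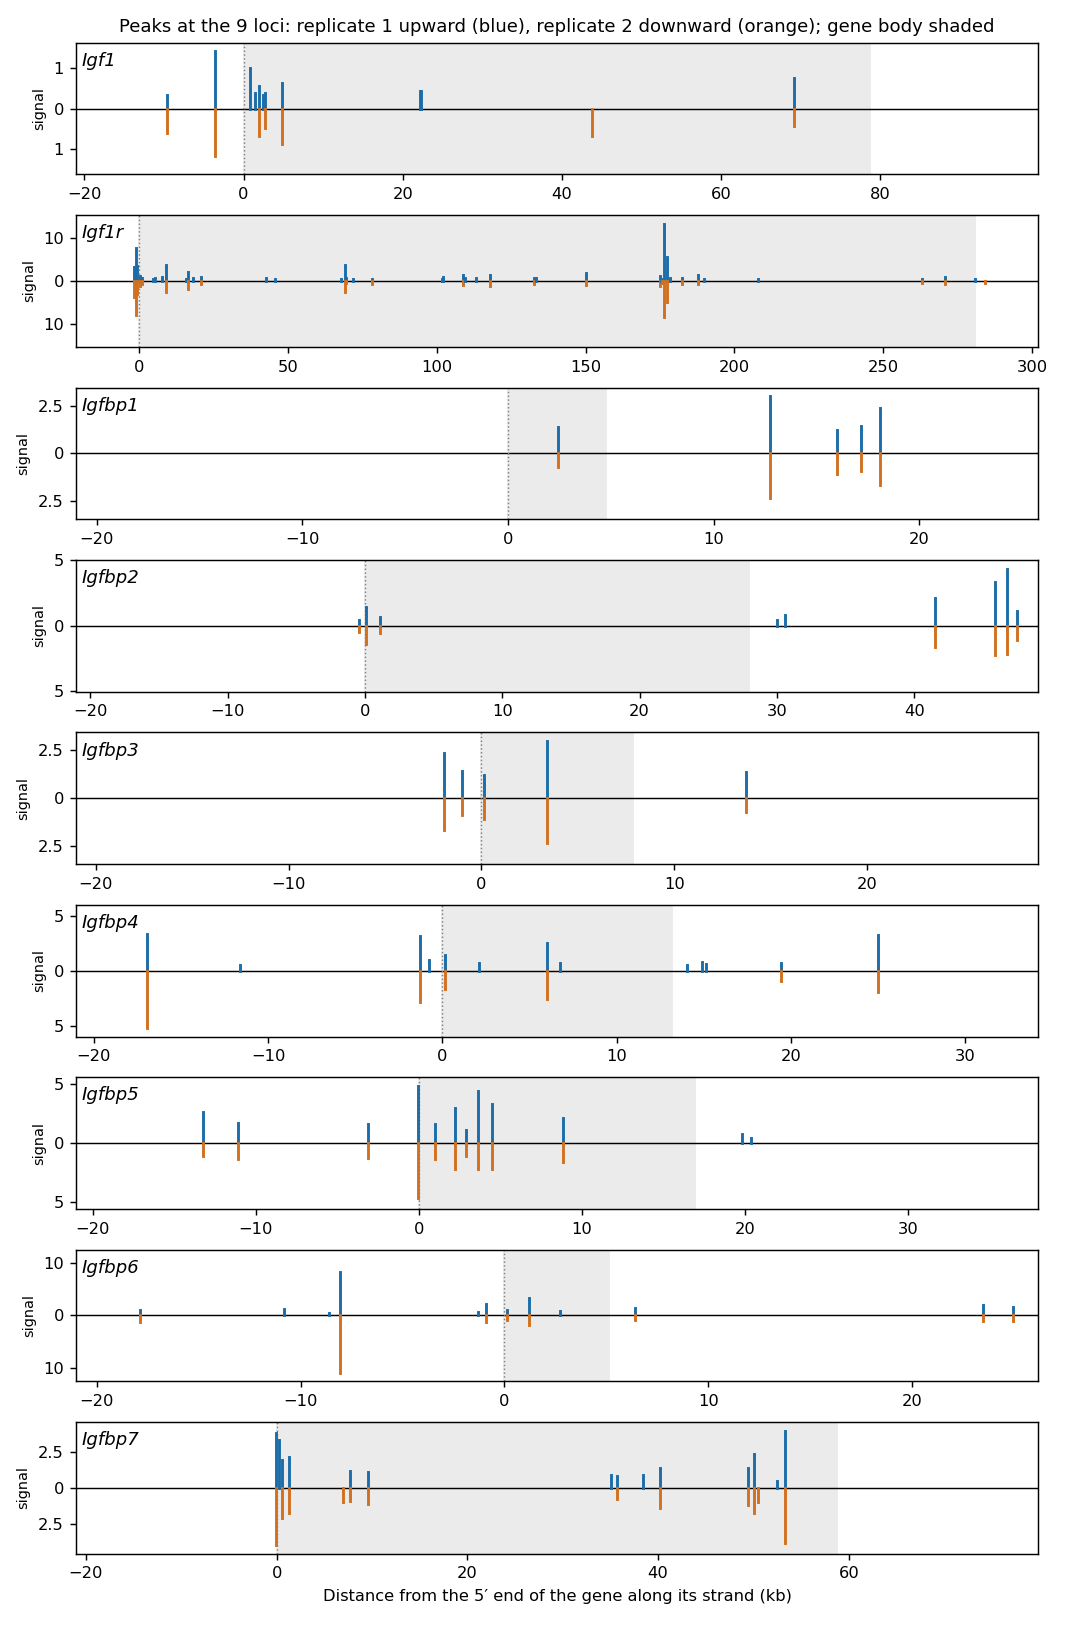
Peak signal against distance in kb from the 5′ end of each gene, along its strand, with replicate 1 upward in blue, replicate 2 downward in orange and the gene body shaded; the signal axis differs between panels. The pair near +176 kb of Igf1r reached 13.2 in replicate 1, and the Igfbp1 panel has no peak at 0 kb.

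Igfbp1 and Igfbp3 lie tail to tail on chromosome 11 with 3539 bp between them, so their loci overlap and shared the same 5 regions. Igfbp1 (chr11:7197782-7202546, plus strand) encodes a binding protein made largely by liver, where insulin and fasting control it. At its single TSS no base within 1 kb was at an FDR of 0.05 or lower and no footprint was called, in both libraries. The nearest peak lay 2339 bp away in replicate 1 and 2373 bp in replicate 2, in intron 2 at +2.43 kb, with 1.37 in replicate 1 and 0.696 in replicate 2. A promoter window of 2500 bp would therefore count Igfbp1 as open.

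Igfbp3 (chr11:7206086-7213923, minus strand) encodes the main carrier of IGFs in blood. Its strongest promoter peak had 1.41 in replicate 1, centred near −1.02 kb, and 1.10 in replicate 2, where it was the broad peak over the TSS. The mean was 1.25 ± 0.223 (SD, n = 2), at percentile 14.6, although its RefSeq promoter window had a CpG ratio of 0.961, at percentile 91.8. The shared region over the TSS, with 1.23 in replicate 1 and 1.10 in replicate 2, held 11 footprints in each library, 5 of them overlapping. Stronger regions flanked it: 1 in intron 1 at +3.39 kb (2.99 in replicate 1 and 2.32 in replicate 2) and 1 upstream at −1.95 kb (2.36 and 1.66). The intron region is shown for its footprint over a match to the CTCF motif, bases 88 to 99 as printed, all 12 in a footprint of both libraries. It is chr11:7210441-7210620 of mm10, minus strand, as the gene.

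Igfbp3 intron 1 region: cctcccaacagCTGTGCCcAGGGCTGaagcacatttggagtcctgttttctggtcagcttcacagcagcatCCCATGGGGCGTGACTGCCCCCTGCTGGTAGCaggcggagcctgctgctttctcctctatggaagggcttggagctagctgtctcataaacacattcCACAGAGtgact

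Igfbp2 and Igfbp5 also lie tail to tail, on chromosome 1 with 5457 bp between them, and 4 shared regions fell in both loci. Igfbp2 (chr1:72824503-72852474, plus strand) encodes a binding protein abundant in fetal tissues. Its promoter peak, over the TSS, had 1.43 in replicate 1 and 1.39 in replicate 2, a mean of 1.41 ± 0.0288 (SD, n = 2) at percentile 16.6. The 2 libraries differed little there. A weak region at −0.411 kb had 0.458 in replicate 1 and 0.472 in replicate 2, and another at +1.07 kb had 0.651 and 0.544. From there to +41.5 kb, inside Igfbp5, the Igfbp2 locus had no shared region.

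Igfbp5 (chr1:72857932-72874884, minus strand), which encodes a binding protein that adheres to extracellular matrix, had shared regions on both sides of a promoter that was itself among the stronger of the 9. The promoter peak at −0.057 kb had 4.83 in replicate 1 and 4.66 in replicate 2, a mean of 4.75 ± 0.121 (SD, n = 2) at percentile 51.3. Intron 1 held 5 further shared regions outside promoters. The region of highest mean among these, at +3.62 kb, had 4.37 in replicate 1 and 2.17 in replicate 2. Those at +4.50 kb (3.33 and 2.22) and +2.21 kb (2.98 and 2.21) were lower in replicate 1 but slightly higher in replicate 2. The region at +8.87 kb (2.10 and 1.61) held the other CTCF match found in the shared regions, the only parts of the loci searched. Upstream, regions at −3.13, −11.1 and −13.2 kb had signals of 1.57, 1.66 and 2.60 in replicate 1 and 1.27, 1.35 and 1.10 in replicate 2. With 17.6 shared regions per 100 kb the locus was at percentile 94.4 of protein-coding genes.

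Igfbp7 (chr5:77349240-77408041, minus strand) encodes a secreted protein with low affinity for IGFs that is found in vessel walls and matrix. Its promoter peak at −0.02 kb had 3.85 in replicate 1 and 4.0 in replicate 2, a mean of 3.92 ± 0.102 (SD, n = 2) at percentile 43.6. A second promoter peak, at +0.25 kb in exon 1, was called in replicate 1 alone with 3.32. In replicate 2 all 220 of its bases nonetheless were at an FDR of 0.001 or lower. Far inside the gene, a region in intron 2 at +53.3 kb matched the promoter, with 3.95 in replicate 1 and 3.85 in replicate 2, and all 10 shared regions of the locus lay in introns or at the promoter. Intron 1 held regions at +50.1 kb (2.36 in replicate 1 and 1.72 in replicate 2) and +1.31 kb (2.13 and 1.73), and a promoter region at +0.55 kb (1.95 and 2.10). The promoters of Igfbp5 and Igfbp7 are printed as the strongest promoters whose peak covered the gene's 5′ end, without exon bases. The Igfbp5 string is chr1:72874885-72875020 and the Igfbp7 string chr5:77408046-77408160 of mm10, both on the minus strand, as the genes.

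Igfbp5 promoter: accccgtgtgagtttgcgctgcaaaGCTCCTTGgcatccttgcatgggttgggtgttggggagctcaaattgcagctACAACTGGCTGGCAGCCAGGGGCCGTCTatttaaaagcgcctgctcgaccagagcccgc

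Igfbp7 promoter: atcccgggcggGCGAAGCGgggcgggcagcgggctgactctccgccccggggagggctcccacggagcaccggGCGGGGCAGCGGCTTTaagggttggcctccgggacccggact

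In the Igfbp5 promoter the footprint stretch of both libraries nearer the gene contains an E-box (CAACTG). The Igfbp7 promoter has 77.4% GC and 4 GC boxes (GGGCGG on either strand), 1 of them partly in a footprint, while the Igfbp5 promoter has 58.8% GC and none.

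Igfbp4 (chr11:99041244-99054392, plus strand) encodes a binding protein that mainly inhibits IGF action and is cut by the protease PAPP-A. Its strongest promoter peak had 2.53 in replicate 1 and 2.57 in replicate 2, a mean of 2.55 ± 0.0253 (SD, n = 2) at percentile 29.5. It lay in intron 1, at an internal protein-coding start at +6.07 kb. At the 5′ end the peak had 1.47 in replicate 1 and 1.66 in replicate 2, and with that end alone the mean fell to 1.57. A region at −1.29 kb exceeded both, with 3.14 in replicate 1 and 2.89 in replicate 2. The highest region of the Igfbp4 locus, at −17.0 kb, was the promoter of Top2a, which encodes a topoisomerase of dividing cells, with 3.37 in replicate 1 and 5.22 in replicate 2. Downstream of the gene, a shared region at +25 kb was higher in replicate 1 as deposited (3.29, and 1.93 in replicate 2). Another, at +19.4 kb, was higher in replicate 2 (0.734 in replicate 1 and 0.959 in replicate 2).

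Igfbp6 (chr15:102144362-102149511, plus strand) encodes a binding protein that prefers IGF2 to IGF1. Its strongest promoter peak, near −0.911 kb, had 2.13 in replicate 1 (Poisson 95% interval 1.93 to 2.35) and 1.30 in replicate 2 (1.10 to 1.51). As deposited, this was the widest gap between the libraries among the 8 open promoters, with a mean of 1.71 ± 0.594 (SD, n = 2) at percentile 20.3. With a window of 500 bp the signal fell to 0.909, that of the region over the TSS (0.963 in replicate 1 and 0.855 in replicate 2). Intron 1 held a stronger region at +1.22 kb, with 3.26 in replicate 1 and 1.80 in replicate 2. It is shown because it has 2 copies of the AP-1 motif TGAGTCA, 1 of them partly in a footprint of both libraries. It is chr15:102145481-102145680 of mm10, plus strand, as the gene. The highest region of the locus, at −8.06 kb, was the promoter of the neighbouring gene Spryd3, with 8.30 in replicate 1 and 11.0 in replicate 2. Downstream regions at +23.5 kb (2.01 and 1.08) and +24.9 kb (1.70 and 1.06) were lower in replicate 2.

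Igfbp6 intron 1 region: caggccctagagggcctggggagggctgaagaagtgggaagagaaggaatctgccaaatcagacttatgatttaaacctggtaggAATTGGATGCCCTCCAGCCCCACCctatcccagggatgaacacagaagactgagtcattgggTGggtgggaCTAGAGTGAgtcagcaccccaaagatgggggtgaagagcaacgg

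Joined where they overlap, the 9 loci made 7 stretches of 783245 bp with 113 peaks in replicate 1 and 76 in replicate 2. Of 116 regions, 70 (60.3%) were shared, against 50.6% of all regions. A further 41 were peaks of replicate 1 alone, with a median signal of 0.604, and 4 of these had bases at an FDR of 0.05 or lower in replicate 2. Another 5 were peaks of replicate 2 alone. The shared regions had a median signal of 1.45 in replicate 1 and 1.18 in replicate 2, against 1.28 and 0.975 over all shared regions. Of the 70, 20 were centred within 1 kb of a TSS of some gene and 50 were not, 30 of the latter in introns. Over all shared regions, 37.0% were centred within 1 kb of a TSS, and the share in introns was not counted. The 50 include the Igf1r region at −1.05 kb, whose edge gave that gene its promoter signal. By the RefSeq start of Igf1r this region would be centred within 1 kb of a TSS. Counts of shared regions of single loci moved with the settings: Igf1 had 6, but 1 with the stronger 50% of peaks, Igf1r 22 but 12, and Igfbp6 8 but 23 with flanks of 50 kb. Footprints numbered 331 in replicate 1 and 204 in replicate 2. Of the footprints of replicate 2, 129 (63.2%) overlapped one of replicate 1. Among all footprints of replicate 2 the share was 63.6%, so that at the IGF loci was near the background.

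**Figure D3:**
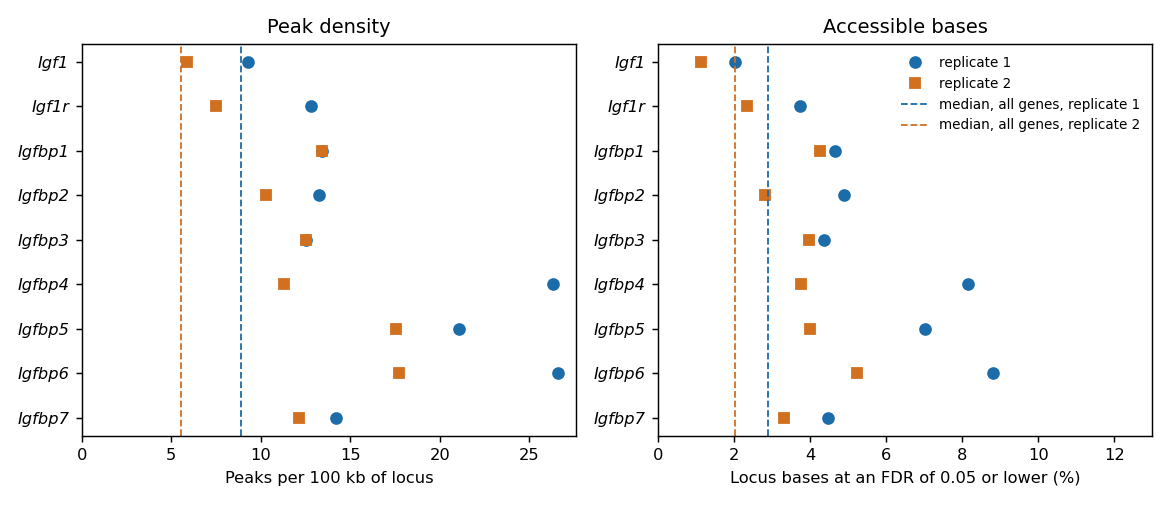
Peaks per 100 kb (left) and percent of locus bases at an FDR of 0.05 or lower (right) for the 9 loci, with replicate 1 as circles, replicate 2 as squares and the medians over all protein-coding genes as dashed lines. Igf1 lies below the dashed lines for bases, at 2.03% and 1.13%, and Igfbp6 is highest, at 8.81% and 5.23%.

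The Igf1 locus lay near the middle of protein-coding genes for shared regions per 100 kb, at percentile 50.6. Igfbp6 was at percentile 94.6, Igfbp4 at 81.9, Igfbp1 at 81.5, Igfbp3 at 79.1, Igfbp2 at 78.6 and Igfbp7 at 77.9. The overlapping pairs count the same regions and are not independent, and the Igfbp4 and Igfbp6 loci take in promoters of neighbouring genes.

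Replicate signals in the shared regions of the IGF loci were compared after each library was divided by its median over all shared regions. The median log2 ratio of replicate 1 over replicate 2 was −0.17 (SD 0.42 over 70 regions), against −0.10 (SD 0.42) over all shared regions; undivided, the 2 medians were 0.23 and 0.30. By locus the median ranged from −0.69 at Igf1, over 6 shared regions, to 0.31 at Igfbp6, over 8. The strongest shared region of Igf1, at −3.64 kb, had −0.13. Only 2 regions differed by more than 2 fold, where 2.30% of all shared regions did. They were the region of Igf1 at −9.65 kb (log2 ratio −1.18) and the Top2a promoter (−1.02). The Igf1 region at −9.65 kb was weak, at 0.344 in replicate 1 and 0.592 in replicate 2.

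**Figure D4:**
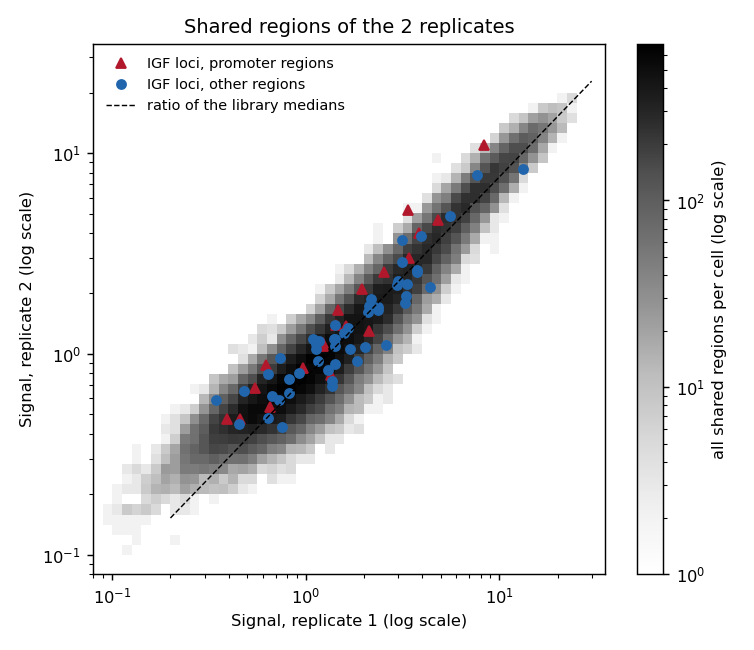
Signal of shared regions in replicate 1 (horizontal) and replicate 2 (vertical), both on log axes, with all shared regions as grey cells and the 70 regions of the IGF loci as red triangles (promoters) and blue circles (others). The regions of the IGF loci lie within the cloud of all regions, and the circle at 13.2 and 8.32 is the intron 2 region of Igf1r.

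Short motifs were searched on both strands in the central 200 bp of each shared region. Of 15 motifs, NFI motifs (TTGGCN) were found in 38 of the 70 regions (54.3%) and in 43.9% of all shared regions. AP-1 motifs (TGANTCA) were found in 9 (12.9%) and in 11.5% of all, and E-boxes (CANNTG) in 44 (62.9%) and in 64.3%. GC boxes (GGGCGG) were found in 18 (25.7%) and in 25.1% of all; of the 50 regions centred over 1 kb from a TSS, a split chosen after the values were seen, 10 (20%) held one, the Igf1r region at −1.05 kb among them, as did 11.2% of all such regions. ETS motifs (CCGGAA) were found in 1 region (1.43%) and in 8.79% of all, CTCF matches in 2 (2.86%) and 6.41%, and the SRF CArG box in none and 0.882%. FOXO motifs (TGTTTAC) were found in 1 region and STAT5 motifs (TTCNNNGAA) in 4, which is 1.43% and 5.71%, against 3.05% and 5.13% of all. C/EBP motifs (TTNCNNAA) were found in 19 regions (27.1%) and in 27.9% of all, and glucocorticoid receptor motifs (AGAACA) in 10 (14.3%) and in 13.5%. TEAD motifs (GGAATG) were found in 8 regions (11.4%) and in 12.3% of all, and hypoxia motifs (ACGTG) in 6 (8.57%) and in 14.2%. GATA motifs (AGATAA) were found in 3 regions (4.29%) and in 6.47% of all, and TATA boxes (TATAAA) in 2 (2.86%) and in 4.54%. In a window of 100 bp, C/EBP motifs were found in 10 regions, NFI motifs in 25 and STAT5 motifs in none. Matches overlap where motifs share letters, as an E-box CACGTG does with the hypoxia motif. The letters used for NFI and for the glucocorticoid receptor are each 1 arm of a 2-part site. A match shows these letters alone and not a bound factor.

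Of 49 other genes of the pathway, 45 (91.8%) had an open promoter and the other 4 had no promoter peak in either library, against 66.3% of all protein-coding genes open. All 22 genes of intracellular signalling were open, with a median signal of 6.52. The highest were Gsk3b, a kinase downstream of AKT, at 12.7 ± 1.51, the adaptor gene Grb2 at 12.3 ± 1.36, and Rheb, the GTPase that activates mTOR, at 11.9 ± 3.03 (SD, n = 2). Each exceeded the promoter of Igf1r.

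Of the 8 other ligand and receptor genes 6 were open (75%, against 66.3% of all protein-coding genes), with a median of 1.21. Insr, the insulin receptor gene, had 8.03 in replicate 1 and 6.13 in replicate 2, a range that holds the Igf1r values. Igf2r, whose product clears IGF2, had 2.44 in replicate 1 and 2.09 in replicate 2, and the insulin receptor-related gene Insrr had 1.31 and 1.48. Ins1 and Igfals, which encode an insulin and the acid-labile subunit that carries IGFs with IGFBP3 in blood, had no promoter peak in either library. The fetal growth ligand gene Igf2, chosen after its values were seen, was open at 0.708 in replicate 1 and 0.672 in replicate 2, levels that overlap those of Igf1.

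In the growth hormone branch 6 of 7 genes were open (85.7%, against 66.3% of all protein-coding genes), with a median of 4.57. They were led by the kinase gene Jak2 at 7.37 ± 0.813, the feedback inhibitor gene Cish at 6.49 ± 0.172 and the hormone receptor gene Ghr at 4.63 ± 0.596 (SD, n = 2). Ghrhr, the pituitary receptor of growth hormone-releasing hormone, had no promoter peak. Of 9 genes of binding protein proteases and their inhibitors 8 were open, with the highest signals at Timp2 (5.79 ± 0.449), Adamts1 (5.38 ± 0.837) and Htra1 (2.50 ± 0.157), and no peak at Pappa2. All 3 Igf2bp genes, whose products bind Igf2 and other mRNAs, were open, at 3.15 ± 0.0541 for Igf2bp3, 2.14 ± 0.210 for Igf2bp2 and 0.960 ± 0.0121 for Igf2bp1.

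**Figure D5:**
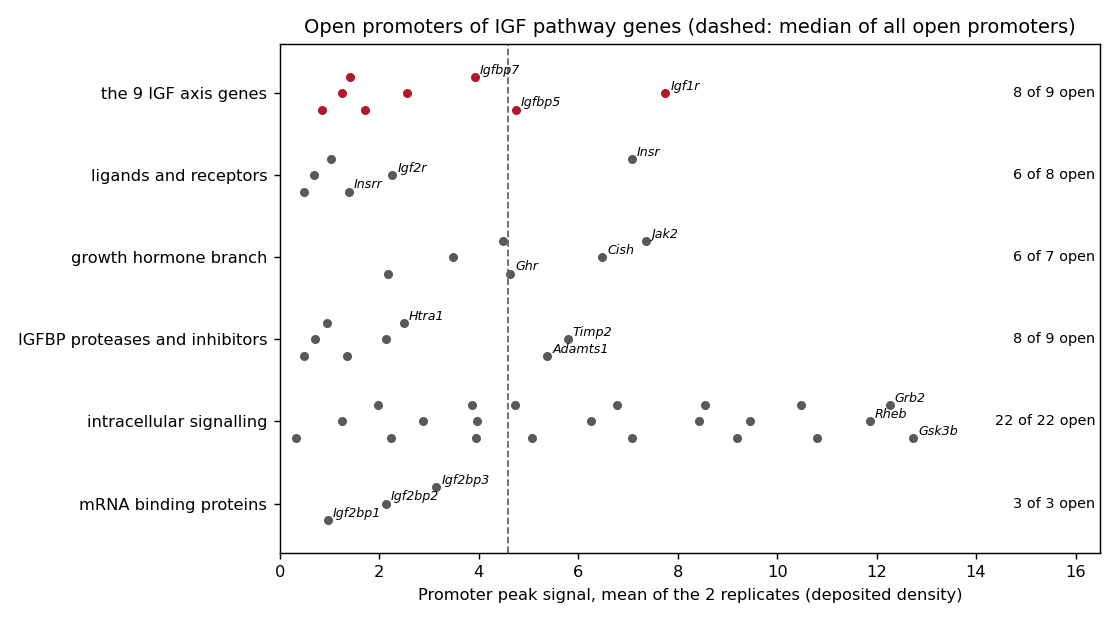
Mean promoter signal of the 2 replicates, in deposited density units, for each open gene of the 9 IGF axis genes (red) and of 5 pathway lists (grey), with the 3 highest of each named and the median of all open promoters dashed. All 22 intracellular signalling genes are open, with Gsk3b highest at 12.7.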

How the data were processed

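DNase-seq peaks, footprints and FDR tracks were used for 2 libraries of mouse bladder, with 4 tables a library. Signal values of the peaks are the authors' deposited density per peak. The deposited FDR track gives the authors' p-value or q-value for stretches of bases, and lists values of 0.05 or lower. The deposited footprint value, a score, was 0.01 throughout, so footprints were used as positions. The build was mm10, per the labels. No aligner, caller, version or normalization is named here, each being not given in the sources used here. Every signal was a whole multiple of a step of its library, within 0.02 steps. Intervals treat a step as 1 cut and cover counting error only, and reads may include copies. No column of other samples was present (0 columns).

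The looser peak list was the main one. Peaks overlapping by at least 1 bp were joined. A promoter's signal was that of the strongest peak within 1 kb of any TSS in each library. Regions were placed by their centre, so that one centred over 1 kb from a TSS can still give a promoter signal. The annotation was GENCODE M21, and sequences and promoter windows (250 bases before to 50 after the start) came from the RefSeq assembly GRCm38.p6, the same build. Replicate ratios were on the log2 scale, computed from the deposited signal with no pseudocount. Percentiles are among all protein-coding genes, all open promoters or all shared regions. Work was done in Python 3.11.15 with numpy 2.4.6, pandas 2.3.3 and pysam 0.24.0, and the joining of peaks was tested on simulated data. The genes, lists, motifs and rules were chosen with earlier results of these data known. The text names, in each locus, the promoter region and up to 3 shared regions outside promoters of highest mean rank, and, in each pathway list, the 3 open genes of highest mean signal and all without a peak. Cell type marker lists are given as counts. Other regions named were chosen after their values were seen. With 1 group, no test was made.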

Additional observations from a re-analysis of the deposited data

How the results depend on the processing

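The 8 open promoters became 7 with the stronger 50% of peaks and 7 with the 5′ end alone, where Igf1 was lost, and 9 with a window of 2500 bp. The median promoter signal of 2.13 became 1.71 with the 5′ end alone, 2.53 with the 2500 bp window and 2.55 with the stronger 50% of peaks. The mean of 94.5 peaks a library over the joined loci became 142 with a flank of 50 kb and 62.5 with the stricter lists. Bases at an FDR of 0.05 or lower, 28.2 kb, became 17.0 kb at 0.001 or lower, 43.5 kb with the 50 kb flank and 18.4 kb for gene bodies alone. Footprints, 267.5 a library, became 171.5, and shared footprints, 129, became 69, for gene bodies alone. Why these values moved was not tested. Leaving out a replicate gave 8 to 8 open promoters, median signals of 1.98 to 2.33, 76 to 113 peaks, 21.7 to 34.7 kb and 204 to 331 footprints. The median log2 ratio of replicates at the IGF loci, −0.17, became 0.23 without scaling. Its difference from all shared regions, −0.07, is fixed under any scaling and ranged from −0.10 with equal numbers of peaks to −0.07 with an overlap of 50%. With both replicates kept, 6 of 54 promoter signals of single genes moved by more than the spread between replicates, beside the loss of Igf1. Counts of shared regions of single genes moved by over 1.5 times in 18 of 63 recomputations, and motif counts did, or became 0, in 9 of 28. No paired analysis was possible because the libraries form 1 group and no result comes from a test. The unknown read depth, the smaller peak list of replicate 2 and n = 2 limit each value, and a missing peak at this depth is not an absent site.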
